A study of Mus musculus with 15 samples.

Results

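Oxidative phosphorylation is carried out by 5 protein complexes of the inner mitochondrial membrane, and the genes described here encode the nuclear part of them. The members are the 90 nuclear genes of a table of 18193 whose mouse symbol begins with Nduf, Uqcr or Atp5, begins with Cox and a digit of a structural subunit (Cox4 to Cox8), or is Sdha, Sdhb, Sdhc or Sdhd. They were sorted by symbol into complex I (36 genes), the assembly factors of complex I with symbols in Ndufaf (8 genes), complex II (4 genes), complex III (8 genes), complex IV (17 genes) and complex V (17 genes). The choice used names and no measured value, apart from the rule that the brightest probe set on average stood for its gene.

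Expression was measured on 15 Affymetrix arrays, 3 for each of 5 groups of mouse cells. MSC are mesenchymal stromal cells in low-glucose medium with 10% serum. HD28 are MSC that were given HGF at 20 ng/ml, bFGF at 10 ng/ml and nicotinamide at 0.61 g/L for 7 days, and after that oncostatin M at 20 ng/ml, dexamethasone at 1 µmol/L and the supplement ITS at 50 mg/ml. The cells labelled dHD28 are HD28 put back into the MSC medium, for a time that is not given in the sources used here. Hepatocyte stands for primary hepatocytes in DMEM/F12 with 10% serum. MLC are hepatocytes that were moved to the MSC medium with human TGF-β1 at 10 ng/ml to day 7, 5 ng/ml to day 14 and 1 ng/ml to day 28, and then without it, so that MSC, dHD28 and MLC all ended in MSC medium. The series title concerns DNA methyltransferases and the reversibility of this differentiation. Strain, age and whether replicates were separate cultures or animals are not given in the sources used here, so p-values measure the spread between these samples, which may be technical.

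Complex I takes electrons from NADH and complex II, which is also an enzyme of the tricarboxylic acid cycle, takes them from succinate. Both pass them to ubiquinone, complex III hands them on to cytochrome c, complex IV gives them to oxygen, and complex V uses the proton gradient built on the way to make ATP. Hepatocytes are rich in mitochondria, and the nuclear subunit genes are known for promoters without a TATA box in which sites for NRF1, ETS-family factors (NRF2, also called GABP), YY1 and the estrogen-related receptors recur.

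The promoters of 8 members that are named below are shown. They were chosen by hand, and other members named below, such as Sdhb, Ndufa6, Uqcrc2 and Ndufaf6, are not shown. The 8 thus do not show how common matches are among the members, and the shares over all member windows follow them. Each run is the 150 bases just before the start site in RefSeq (GRCm38.p6), written 5′ to 3′ on the strand of the gene, with matches to a searched motif in capitals. The motifs were GCGC, any base and TGCGC in a row (NRF1), CCGGAAG (ETS), AAGATGGCG (YY1) and TCAAGGTCA (ERR), each searched on both strands.
Sdha (chr13:74350241-74350390, minus strand): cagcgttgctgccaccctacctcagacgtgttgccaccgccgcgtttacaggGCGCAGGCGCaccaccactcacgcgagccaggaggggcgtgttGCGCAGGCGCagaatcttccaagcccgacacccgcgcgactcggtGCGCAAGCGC
Sdhd (chr9:50603850-50603999, minus strand): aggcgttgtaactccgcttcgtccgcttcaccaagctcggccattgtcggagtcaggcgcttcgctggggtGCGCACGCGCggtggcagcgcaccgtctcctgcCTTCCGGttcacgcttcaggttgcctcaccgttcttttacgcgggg
Ndufaf4 (chr4:24897933-24898082, plus strand): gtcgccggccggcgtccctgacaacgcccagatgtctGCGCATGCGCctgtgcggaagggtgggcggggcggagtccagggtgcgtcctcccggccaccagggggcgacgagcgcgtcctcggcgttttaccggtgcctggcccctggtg
Ndufaf1 (chr2:119662835-119662984, minus strand): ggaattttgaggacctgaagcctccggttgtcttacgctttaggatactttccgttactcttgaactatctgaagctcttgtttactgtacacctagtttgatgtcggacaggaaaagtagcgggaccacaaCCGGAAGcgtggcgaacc
Ndufs5 (chr4:123718187-123718336, minus strand): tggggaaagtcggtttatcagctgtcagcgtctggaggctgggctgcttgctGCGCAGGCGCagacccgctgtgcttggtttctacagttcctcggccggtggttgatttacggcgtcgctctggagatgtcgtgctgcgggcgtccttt
Atp5j (chr16:84834977-84835126, minus strand): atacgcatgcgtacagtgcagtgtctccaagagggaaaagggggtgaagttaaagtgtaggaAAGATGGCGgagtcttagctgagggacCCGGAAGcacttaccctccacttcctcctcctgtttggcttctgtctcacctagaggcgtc
Atp5g2 (chr15:102671048-102671197, minus strand): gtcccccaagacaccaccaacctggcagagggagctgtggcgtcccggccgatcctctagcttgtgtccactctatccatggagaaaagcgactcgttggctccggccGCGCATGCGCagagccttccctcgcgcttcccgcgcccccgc
Cox7a1 (chr7:30184021-30184170, plus strand): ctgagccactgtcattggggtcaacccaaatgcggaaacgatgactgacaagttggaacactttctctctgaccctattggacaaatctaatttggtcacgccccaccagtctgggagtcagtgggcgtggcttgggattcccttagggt

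Sdha, the catalytic flavoprotein of complex II, held 3 NRF1 matches, which began 98, 55 and 10 bases before its start site. Sdhd, a membrane anchor of the same complex, held 1 NRF1 and 1 ETS match there. Atp5j, a stalk subunit of complex V, held a YY1 and an ETS match in the one of its 2 listed windows that is shown. That window was taken because it held the most matches. Cox7a1, the muscle and heart isoform of a complex IV subunit, held no match to these letters in its window. RefSeq promoter windows of 250 bases before and 50 after the start were found for 74 of the 90 members, 79 windows in all. The NRF1 motif was in 22.8% of the member windows and in 4.6% of all 32851 windows of this length. The ETS motif was in 24.1% against 8.86%, the YY1 motif in 8.86% against 1.4% and the ERR motif in 2.53% against 0.423%. No matches of different motifs overlapped within the member windows. At least 1 match was found in 37 members, and a match describes letters in a window and not a bound site.

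Some arrays stood apart or near one another against their labels, and these facts touch the comparisons below. In HD28 replicate 3, 11 of 11 measured hepatocyte markers were above every array of MSC, dHD28, MLC and the other HD28 replicates, and their mean log2 value was 11.19 against 4.22 and 4.49 there and 12.74 to 12.90 in Hepatocyte. Of the 9 arrays of MSC, dHD28 and MLC, 8 were nearest over all genes to an array of another group, for example MSC replicate 1 to dHD28 replicate 2, with a root mean square difference of 0.228 log2 units against 0.657 to the nearest MSC array. The poly-A spike-in controls split the arrays into 6 with a high mean signal (7.35 to 8.50) and 9 with a low one (4.70 to 5.49), in every group. The Hepatocyte arrays had a stromal marker mean of 4.94 to 6.62 against 9.84 to 10.42 elsewhere. They also carried RNA of other liver cells. Marker means were 6.42 to 8.17 for macrophages, 5.91 to 7.14 for endothelium and 5.63 to 7.53 for stellate cells. In every Hepatocyte array 8 of 10, 7 of 7 and 3 of 5 of these markers were above all arrays but HD28 replicate 3. HD28 replicate 3 had means of 5.65, 4.93 and 5.23. In it 7 of 10, 6 of 7 and 3 of 5 of the markers were above all arrays but Hepatocyte. The actin 3′ signal of the Hepatocyte arrays exceeded the 5′ signal by 0.66 to 1.24 log2 units, against 0.08 to 0.44 in the other arrays apart from HD28 replicate 3 (0.94). Counts without HD28 replicate 3 stand beside the HD28 comparisons below, and counts blocked on spike-in class are given with the spike-in results. The part of the other liver cells, of the actin signal and of the nearness of arrays across labels was not tested. In bulk RNA fewer cells of a type and less RNA per cell cannot be told apart.

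Level and spread were first taken over all 5 groups. The members' mean log2 value was 9.96 to 10.02 in the MSC arrays, 9.89 to 9.99 in HD28, 9.82 to 10.02 in dHD28, 10.26 to 10.45 in Hepatocyte and 9.96 to 10.02 in MLC. By this summary the Hepatocyte arrays lay above all others, and the other 4 groups overlapped. Over the 5 groups 37 of the 90 members differed by limma's F test at an adjusted p under 0.05 (41.1%), against 46.8% of all genes tested. The share was 12 of 36 in complex I, 5 of 8 among its assembly factors, 3 of 4 in complex II, 7 of 8 in complex III, 4 of 17 in complex IV and 6 of 17 in complex V. Cox7b2, which read 2.03 to 2.78 in all arrays, was under the lower quartile of all values in every group and Ndufb4, at 3.23 to 3.88, in some, so little can be read from either.

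**Figure D1:**
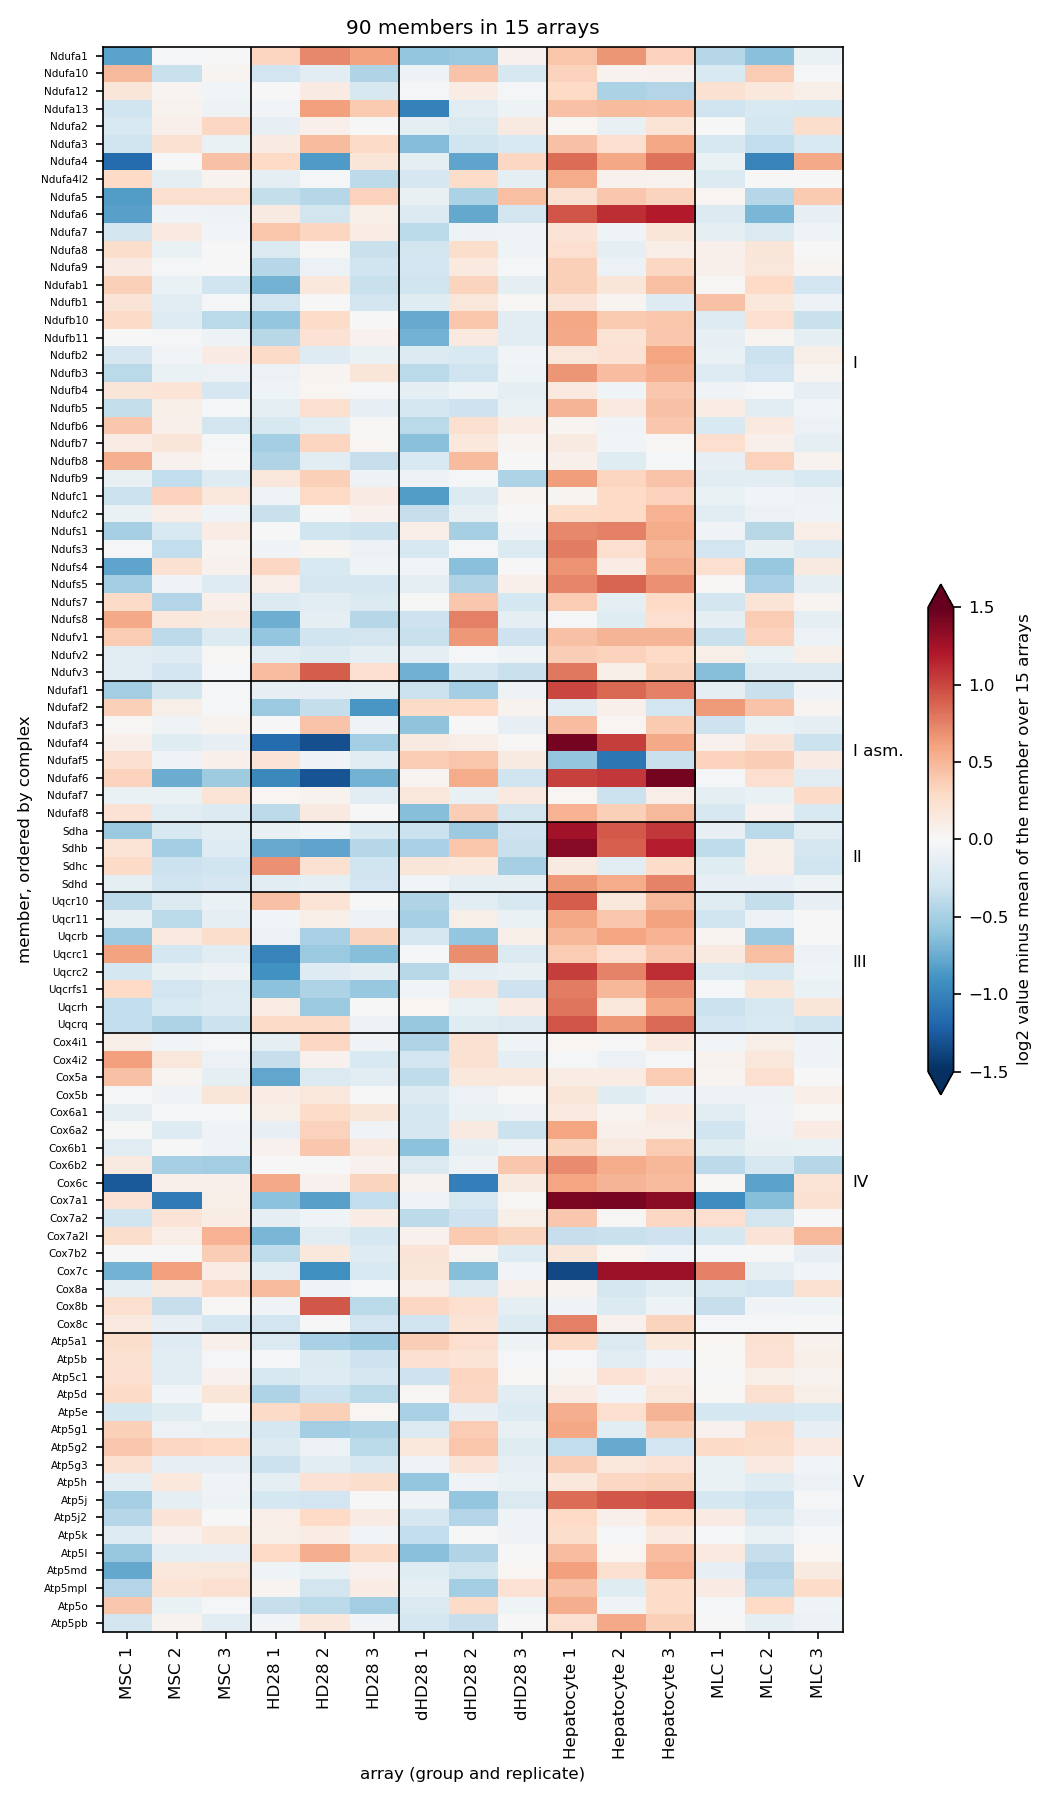
Log2 value of each of the 90 members (rows, by complex) in each of the 15 arrays (columns, by group), as the difference from the mean of that member over all arrays; the colour scale stops at 1.5 in both directions. The Hepatocyte columns are mostly above the mean in complexes II and III, and MSC replicate 1, dHD28 replicate 2 and MLC replicate 2 share low values of Ndufa4, Ndufa6 and Cox6c.

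In hepatocytes the subunits of complexes II and III stood above MSC by more than those of complexes IV and V, by the medians given below. A member is said to have risen or fallen at a Benjamini-Hochberg adjusted p under 0.05 over all genes (limma) with a fold of at least 2. By this rule 11 of 90 members were higher in Hepatocyte and 0 lower, which is 12.2% against 11.8% of all genes tested for higher and 0 against 18.3% for lower. At an unadjusted p under 0.05, 37 were higher and 3 lower, against 23.3% and 27.6% of all genes. At the adjusted p alone, with no fold limit, 29 members were higher (32.2%, against 19.6% of all genes) and 3 lower (3.33%, against 25.1%). The median log2 difference was 0.35 over the members and 0.04 over all genes. By complex it was 1.10 in II, 0.75 in III, 0.40 in I, 0.40 in the assembly factors, 0.21 in V and 0.18 in IV. When arrays were centred on 10 housekeeping genes, 9 of which had a lower mean in Hepatocyte, the median of all genes moved up by 0.75, 51 members were called higher, and the calls of all genes turned from 11.8% higher and 18.3% lower to 33.2% and 9.53%. This centring adds 1 constant to all genes of an array, so it leaves the gap between the members' median and that of all genes at 0.32 by construction.

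**Figure D2:**
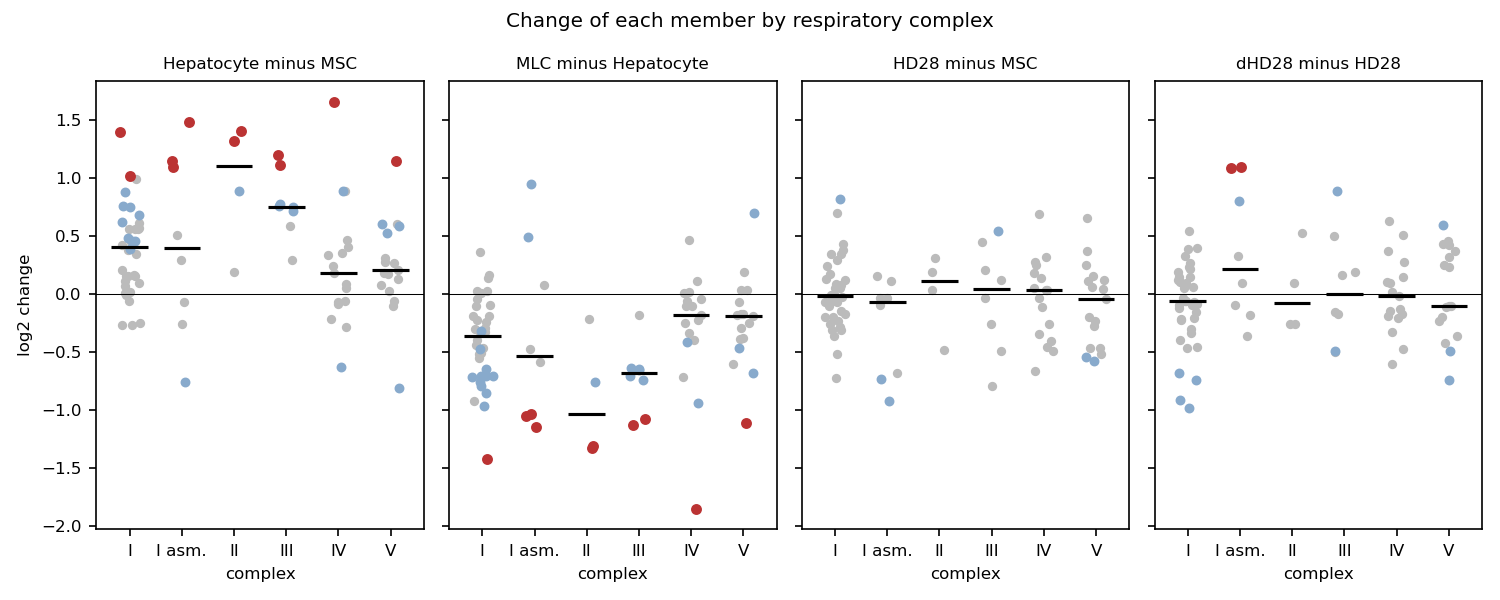
Log2 difference of each member (points) in 4 comparisons, by complex (I asm. marks the Ndufaf assembly factors); red points passed the adjusted p and a fold of 2, blue points passed the adjusted p alone, grey points passed neither, and black bars are medians. Complexes II and III lie above 0 in Hepatocyte minus MSC, with medians of 1.10 and 0.75, and the HD28 comparisons scatter around 0.

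Complex II stood highest, although 1 of its 4 subunits did not follow. Sdha, the flavoprotein that oxidises succinate, read 9.94, 10.26 and 10.33 in the MSC arrays and 11.75, 11.41 and 11.56 in the Hepatocyte arrays. The groups did not overlap, and Sdha rose by 1.40 ± 0.15 (SE) on the log2 scale, a fold of 2.64 (adjusted p = 4.94e-06). Sdha had 4 probe sets. Those with means of 10.50 and 10.07 gave differences of 1.40 and 1.49, and the dim ones, with means of 3.63 and 3.25, gave 0.88 and 0.09. The mean of all 4 gave 0.97, under the fold limit.

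Sdhb, the iron-sulfur subunit, read 10.73, 10.01 and 10.34 in MSC and 11.89, 11.43 and 11.71 in Hepatocyte. The lowest Hepatocyte array was above the highest MSC array, and Sdhb rose by 1.32 ± 0.25 (SE; adjusted p = 0.000667). Sdhd, which anchors the enzyme in the membrane, read 10.12, 9.98 and 10.02 in MSC and 10.93, 10.83 and 11.02 in Hepatocyte. Its difference of 0.89 ± 0.11 (SE) passed the adjusted p (1.88e-05) but not the fold limit, and its 2 probe sets gave 0.58 and 0.89. Sdhc, the other anchor, read 10.14, 9.53 and 9.56 in MSC and 9.99, 9.69 and 10.12 in Hepatocyte, and these overlapped (difference 0.19 ± 0.27, SE; adjusted p = 0.601).

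In complex III, all 8 members had higher means in Hepatocyte than in MSC. Of them 6 passed the adjusted p (75%, against 19.6% of all genes) and 2 the fold limit as well (25%, against 11.8%). Uqcrc2, a core protein on the matrix side, read 10.23, 10.38 and 10.41 in MSC and 11.53, 11.23 and 11.60 in Hepatocyte. The groups were apart by more than their own ranges, and Uqcrc2 rose by 1.11 ± 0.19 (SE; adjusted p = 0.000335), with 0.82 and 1.11 from its 2 probe sets. Its partner core protein Uqcrc1 differed by 0.29 ± 0.27 (SE; adjusted p = 0.414), and its arrays overlapped.

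Uqcrq, a small subunit at the ubiquinone site, read 10.58, 10.48 and 10.63 in MSC and 11.89, 11.59 and 11.79 in Hepatocyte. It rose by 1.19 ± 0.15 (SE; adjusted p = 2e-05) on the bright probe set that stood for it. Its other 3 probe sets had means of 4.96 to 5.31 and differences of -0.25 to 0.07, and without probe sets that may cross-hybridise its difference was 0.01 (adjusted p = 0.984). Uqcr10 went the other way, with 0.76 on its brightest probe set and 2.25 and 3.40 on its 2 dimmer ones. Uqcr11, the member of complex III with the narrowest range of group means, still differed by 0.75 ± 0.16 (SE; adjusted p = 0.00185).

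In complex I, 11 of 36 subunits passed the adjusted p, all higher in Hepatocyte (30.6%, against 19.6% of all genes). Of these, 2 rose past a fold of 2 (5.56% of the 36, against 11.8% of all genes). Ndufa6, an accessory subunit of the LYR family, read 9.14, 9.90 and 9.88 in MSC and 10.89, 11.06 and 11.15 in Hepatocyte. It rose by 1.40 ± 0.23 (SE; adjusted p = 0.00025), and it also followed the spike-in class, as given below. Ndufs5, an accessory subunit, read 8.85, 9.31 and 9.17 in MSC and 10.10, 10.24 and 10.05 in Hepatocyte. Its groups did not overlap, and its rise of 1.02 ± 0.19 (SE; adjusted p = 0.000499) lay close to the fold limit: it was 0.89 without MSC replicate 1 and 0.97 without Hepatocyte replicate 2. The other end was Ndufa2, with the narrowest range of group means of all members (0.12), which read 10.86, 11.17 and 11.40 in MSC and 11.12, 10.98 and 11.30 in Hepatocyte and overlapped fully.

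The assembly factors, which build complex I and are not part of the finished enzyme, moved apart from one another. Ndufaf6, which acts early in assembly, read 7.89, 6.80 and 7.00 in MSC and 8.56, 8.60 and 8.97 in Hepatocyte and rose by 1.48 ± 0.29 (SE; adjusted p = 0.00079). Ndufaf1 read 7.91, 8.15 and 8.40 in MSC and 9.43, 9.28 and 9.18 in Hepatocyte and rose by 1.14 ± 0.16 (SE; adjusted p = 4.49e-05). Ndufaf4 read 8.68, 8.42 and 8.47 in MSC and 10.03, 9.64 and 9.17 in Hepatocyte and rose by 1.09 ± 0.24 (SE; adjusted p = 0.00203), with 2.11 on its second probe set and 0.88 without Hepatocyte replicate 1. In none of the 3 did the groups overlap. Ndufaf5, which hydroxylates a core subunit during assembly, lay the other way: it read 7.36, 7.07 and 7.20 in MSC and 6.54, 6.04 and 6.78 in Hepatocyte, a difference of -0.76 ± 0.19 (SE; adjusted p = 0.00439) within the fold limit, which was -0.012 under housekeeping centring (adjusted p = 0.956). Ndufaf7 hardly moved, with -0.07 ± 0.17 (SE; adjusted p = 0.776).

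Complexes IV and V differed least by their medians. At the adjusted p 6 of their 34 members were higher (17.6%, against 19.6% of all genes) and 2 lower (5.88%, against 25.1%). Atp5j, coupling factor 6 of the ATP synthase stalk, read 10.25, 10.60 and 10.67 in MSC and 11.58, 11.67 and 11.71 in Hepatocyte. It rose by 1.15 ± 0.17 (SE; adjusted p = 7.89e-05) and its groups were far apart. By contrast Cox4i1, the ubiquitous isoform of the subunit that regulates complex IV, read 12.40, 12.28 and 12.29 in MSC and 12.35, 12.32 and 12.46 in Hepatocyte, a difference of 0.05 ± 0.17 (SE; adjusted p = 0.83). Atp5k, the subunit that helps complex V to form dimers, differed by 0.12 ± 0.14 (SE; adjusted p = 0.512). Cox7c, at the dim probe set that stood for it, split the Hepatocyte arrays into 3.43 in replicate 1 and 6.07 and 6.08 in the others. It did not pass with all arrays, and it was higher by 1.28 than in MSC without Hepatocyte replicate 1 (adjusted p = 0.0208).

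**Figure D3:**
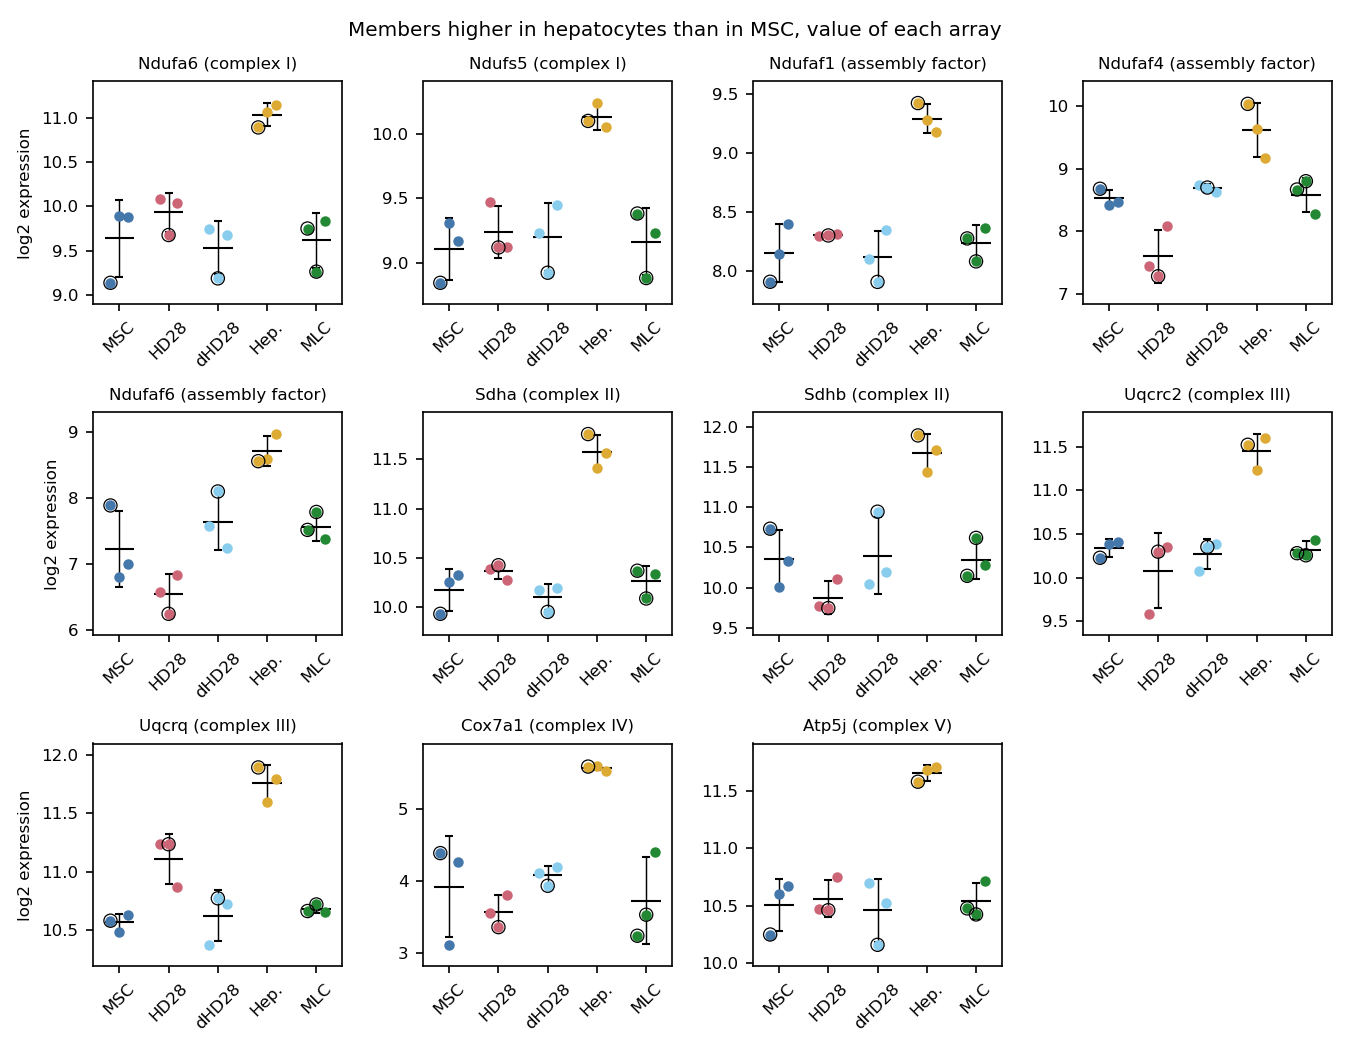
Log2 value of each array (points, 3 per group) for the 11 members that were higher in Hepatocyte than in MSC by the adjusted p and a fold of 2, with the group mean (bar) and SD (whiskers, n = 3); ringed points are the 6 arrays of high spike-in signal. In each panel the 3 Hepatocyte arrays (Hep.) lie above the other 12 arrays, and the vertical axes differ between panels and do not start at 0.

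Some subunits exist as isoforms for different tissues. Cox7a1, the muscle isoform, read 4.38, 3.11 and 4.26 in MSC and 5.59, 5.60 and 5.53 in Hepatocyte. It rose by 1.65 ± 0.32 (SE; adjusted p = 0.000867), but the MSC values lie below the array medians of 4.84 to 4.95 and near the lower quartiles of 3.43 to 3.70, so the size of this difference is uncertain. Beside it, the mean of 11 striated muscle markers was 4.05 to 4.15 in Hepatocyte and 3.70 to 4.38 elsewhere. The mean of 5 brown fat genes was 5.80 to 5.94 in Hepatocyte and 3.94 to 5.00 elsewhere, and Elovl3 alone carried most of that gap, with 10.30, 11.60 and 12.29 in Hepatocyte. Ucp1, the defining brown fat gene, read 3.37 to 3.86 there.

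Cox7a2, the isoform of most other tissues, read 12.10, 12.59 and 12.51 in MSC and 12.81, 12.42 and 12.71 in Hepatocyte, and the groups overlapped (0.24 ± 0.19, SE; adjusted p = 0.331). Cox7a2l, a relative that joins complexes III and IV into supercomplexes, was lower at 10.35, 10.37 and 10.39 in Hepatocyte against 10.97, 10.80 and 11.23 in MSC. That difference of -0.63 ± 0.20 (SE; adjusted p = 0.0209) turned to 0.12 under housekeeping centring. The Cox7a2l arrays of HD28, at 10.02, 10.55 and 10.44, were also below every MSC array, but the difference of -0.66 ± 0.20 (SE) did not pass (adjusted p = 0.0528).

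The 3 Atp5g genes encode the same c-ring protein behind different import sequences. Atp5g2 read 11.58, 11.49 and 11.47 in MSC, 10.80, 10.42 and 10.89 in Hepatocyte and 11.45, 11.43 and 11.31 in MLC. The Hepatocyte arrays were below all others of these 3 groups, with a difference from MSC of -0.81 ± 0.17 (SE; adjusted p = 0.00149) that stayed within the fold limit and was -0.067 under housekeeping centring (adjusted p = 0.739). On return, the MLC difference from Hepatocyte of 0.70 ± 0.17 (SE) turned to -0.06 under housekeeping centring. Atp5g1 and Atp5g3 differed between Hepatocyte and MSC by 0.21 ± 0.22 and 0.26 ± 0.14 (SE; adjusted p = 0.483 and 0.154). The dimmest probe set of Atp5g2, near the bottom of the scale at a mean of 2.26, had the opposite sign to the other 2.

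**Figure D4:**
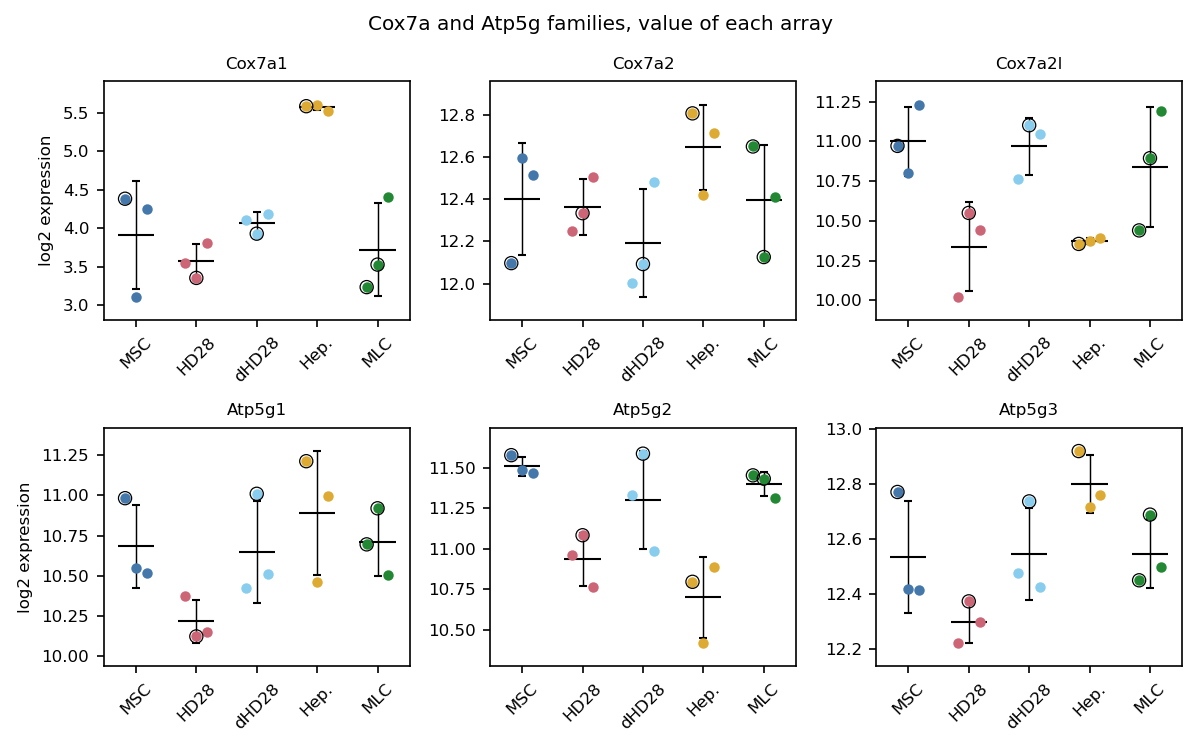
Log2 value of each array (points, 3 per group) for 3 members of the Cox7a family (top) and the 3 Atp5g genes (bottom), with the group mean (bar) and SD (whiskers, n = 3); ringed points are arrays of high spike-in signal, Hep. is Hepatocyte, and the axes differ and do not start at 0. Cox7a1 is highest in Hepatocyte, while Cox7a2l and Atp5g2 are lower in Hepatocyte and HD28 than in MSC on the deposited scale; under housekeeping centring the differences between Hepatocyte and MSC are 0.12 for Cox7a2l and -0.067 for Atp5g2.

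Among the other isoform genes named here, Cox6b2, known as the testis isoform, passed the adjusted p in Hepatocyte against MSC. It read 4.19, 3.56 and 3.53 in MSC and 4.77, 4.62 and 4.55 in Hepatocyte (0.89 ± 0.19, SE; adjusted p = 0.00185), at signals below the array medians, and it crossed the fold limit without MSC replicate 1 (1.10). Its common form Cox6b1 differed by 0.36 ± 0.16 (SE; adjusted p = 0.0807). Cox4i2 (-0.29), Cox6a1 (0.18), Cox6a2 (0.33), Cox8a (-0.22), Cox8b (-0.08), Cox8c (0.46) and Ndufa4l2 (0.15) had differences that did not pass. Ndufa4, named for complex I but known as a subunit of complex IV, differed by 0.99 ± 0.47 (SE; adjusted p = 0.105), with 10.09, 11.25 and 11.68 in MSC and 12.09, 11.83 and 12.06 in Hepatocyte. Its MSC values spread widely, and the low one belonged to an array of high spike-in signal.

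No member rose or fell by the fold rule under the hepatogenic protocol. In HD28 minus MSC, 0 of 90 members rose and 0 fell (limma), where 3.24% of all genes rose and 3.52% fell. At an unadjusted p under 0.05, 8 members were higher and 13 lower, against 9.33% and 14.6% of all genes. At the adjusted p alone 2 were higher (2.22%, against 4.49% of all genes) and 4 lower (4.44%, against 6.22%). The median difference was -0.03 over the members and -0.08 over all genes, and under housekeeping centring, which moved all genes up by 0.19 (4.35% higher and 2.45% lower by the fold rule), it was 0.16. In simulated data with independent noise, 100 genes were changed by 1 log2 unit and 100 by 2. Of the first set 50 passed the adjusted p, and of the second 90 were called by the fold rule. The real arrays had more changed genes and were alike across labels, so these are not the rates of this comparison. A count of 0 does not exclude changes near a fold of 2.

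The 6 that passed came from different complexes. Ndufaf4 read 7.44, 7.28 and 8.08 in HD28 against 8.68, 8.42 and 8.47 in MSC, with all HD28 arrays below, a difference of -0.92 ± 0.24 (SE; adjusted p = 0.0259). Without HD28 replicate 3, the array with hepatocyte markers, the difference was -1.16 (adjusted p = 0.00875) and Ndufaf4 fell by the fold rule as well. Ndufaf2, a late assembly factor, differed by -0.74 ± 0.19 (SE), Atp5g2 by -0.58 ± 0.17 (SE) and Atp5d, of the central stalk, by -0.54 ± 0.15 (SE). Under housekeeping centring none of these lower members passed. Ndufaf4 was then at -0.73 (adjusted p = 0.0961), Ndufaf2 at -0.55 (0.0761), Atp5g2 at -0.39 (0.209) and Atp5d at -0.35 (0.166).

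Ndufa1, a small membrane subunit of complex I, read 11.92, 12.32 and 12.20 in HD28 against 10.79, 11.57 and 11.60 in MSC, above all MSC arrays, by 0.82 ± 0.24 (SE; adjusted p = 0.0487). Uqcrq was higher by 0.55 ± 0.15 (SE; adjusted p = 0.0326) on its bright probe set, while its 3 dimmer ones had differences of -0.47, -0.44 and -0.23. Under housekeeping centring Ndufa1 (1.01, adjusted p = 0.0323) and Uqcrq (0.73, adjusted p = 0.0129) still passed. Without HD28 replicate 3, 1 member was higher and 1 lower at the adjusted p.

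On return to MSC medium, 2 assembly factors of complex I rose. In dHD28 minus HD28, 2 members rose (2.22%, against 4.63% of all genes) and 0 fell (against 4.19%). At an unadjusted p under 0.05, 10 were higher and 13 lower, against 15.1% and 11.4% of all genes. Ndufaf4 read 8.74, 8.70 and 8.62 in dHD28 against 7.44, 7.28 and 8.08 in HD28, without overlap, and rose by 1.08 ± 0.24 (SE; adjusted p = 0.00884). Ndufaf6 read 7.58, 8.10 and 7.24 against 6.57, 6.25 and 6.83, again without overlap, and rose by 1.09 ± 0.29 (SE; adjusted p = 0.0229). Without HD28 replicate 2 neither passed the rule (0.92 for Ndufaf4 and 0.94 for Ndufaf6). Ndufaf6 also missed the threshold when another array was left out, with an adjusted p of 0.0548 for HD28 replicate 1, of 0.0615 for dHD28 replicate 1 and of 0.104 for dHD28 replicate 2.

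At the adjusted p alone, 5 members were higher in dHD28 (5.56%, against 7.97% of all genes) and 7 lower (7.78%, against 6.11%). The other 3 higher ones were Uqcrc1 (0.89 ± 0.27, SE), Ndufaf2 (0.80 ± 0.19, SE) and Atp5a1, the alpha subunit of complex V (0.60 ± 0.18, SE). The lower ones were Ndufv3 (-0.98 ± 0.22, SE; adjusted p = 0.00989), Ndufa1 (-0.91), Ndufa13 (-0.74), Atp5l (-0.74), Ndufa3 (-0.68), Atp5e (-0.49) and Uqcrq (-0.49). Ndufv3, a flavoprotein-arm subunit, read 10.03, 10.50 and 10.42 in dHD28 against 11.22, 11.66 and 11.00 in HD28, all below. It crossed the fold limit without HD28 replicate 3 (-1.12), without HD28 replicate 1 (-1.02) and without dHD28 replicate 2 (-1.07) or 3 (-1.03), and Ndufa1 did so without HD28 replicate 1 (-1.03) or dHD28 replicate 3 (-1.13). Uqcrc1 crossed it upwards without dHD28 replicate 3 (1.07). Without HD28 replicate 3, 2 members were higher and 4 lower at the adjusted p alone. Housekeeping centring moved all genes down by 0.25 here and left 0 members higher and 2 lower, with 2.86% of all genes higher and 6.58% lower. Under it Uqcrc1 (0.64, adjusted p = 0.11), Ndufaf2 (0.55, adjusted p = 0.0558) and Atp5a1 (0.34, adjusted p = 0.223) no longer passed the adjusted p. The 7 lower members still passed it.

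Against hepatocytes, the share of members that fell in HD28 by the fold rule was near that of all genes. In HD28 minus Hepatocyte, 10 members fell (11.1%, against 11.2% of all genes) and 0 rose (against 15.3%), and at the adjusted p alone 31 were lower (34.4%, against 22.3%) and 1 was higher (1.11%, against 22.5%). At an unadjusted p under 0.05 these were 39 and 1, against 27.0% and 25% of all genes. By complex the share lower at the adjusted p was 75% in II, 75% in III, 25% in I, 37.5% in the assembly factors, 23.5% in IV and 35.3% in V. The 3 widest were Ndufaf6 (-2.16 ± 0.29, SE; adjusted p = 4.33e-05), Ndufaf4 (-2.01 ± 0.24, SE; adjusted p = 1.77e-05) and Cox7a1 (-2.0 ± 0.32, SE; adjusted p = 0.000225). Sdhb fell by 1.80 ± 0.25 (SE) and Uqcrc2 by 1.37 ± 0.19 (SE). The call of Ndufa6 was lost without HD28 replicate 2 (-0.97) and that of Uqcrc1 without HD28 replicate 1 (-0.95). This comparison shares the Hepatocyte arrays with the one above and is not independent of it. Housekeeping centring moved all genes down by 0.56, with 9.5% of them higher and 25.7% lower, and gave 42 members lower.

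In HD28 replicate 3, the array with hepatocyte markers, 65 of the 90 members were below every Hepatocyte array (72.2%, against 42.4% of all genes) and 3 above every one (3.33%, against 33% of all genes). In HD28 replicates 1 and 2, 67 and 51 members were below (against 46.3% and 38.2% of all genes). For instance Sdha read 10.27 in replicate 3 against a lowest Hepatocyte value of 11.41 and Sdhb 10.11 against 11.43. Over the other 2 HD28 arrays it was higher by 0.35 for Sdhb and by 0.72 for Ndufaf4 and lower by 0.14 for Sdha. Without this array, 10 members still fell in HD28 minus Hepatocyte.

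In MLC, the cells derived from hepatocytes, the share of members that fell by the fold rule was near that of all genes. In MLC minus Hepatocyte, 10 members fell (11.1%, against 12% of all genes) and 0 rose (against 18.4%), and at the adjusted p alone 31 were lower (34.4%, against 21.4%) and 3 higher (3.33%, against 25.2%). At an unadjusted p under 0.05, 38 were lower and 4 higher, against 25.5% and 27.5% of all genes. By complex the share lower at the adjusted p was 75% in II, 87.5% in III, 33.3% in I, 37.5% in the assembly factors and 17.6% in each of IV and V. This comparison shares the Hepatocyte arrays with Hepatocyte minus MSC and is not independent of it. Cox7a1 fell by 1.85 ± 0.32 (SE), to 3.24, 3.53 and 4.40 in MLC, all below the Hepatocyte arrays. Ndufa6 fell by 1.42 ± 0.23 (SE), to 9.75, 9.26 and 9.83, and Sdha by 1.31 ± 0.15 (SE; adjusted p = 8.51e-06), to 10.37, 10.09 and 10.33. Sdhb fell by 1.33 ± 0.25 (SE) and Ndufaf6 by 1.15 ± 0.29 (SE). The call of Ndufaf4 was lost without Hepatocyte replicate 1 (-0.82) or MLC replicate 3 (-0.88), and that of Ndufaf1 without Hepatocyte replicate 1 (-0.99) or MLC replicate 2 (-0.97). Higher in MLC at the adjusted p were Ndufaf5 (0.95 ± 0.19, SE), Atp5g2 (0.70 ± 0.17, SE) and Ndufaf2 (0.49 ± 0.19, SE), and none of the 3 passed under housekeeping centring (0.19, -0.0644 and -0.28). Housekeeping centring moved all genes down by 0.77 and gave 54 members lower, with 9.46% of all genes higher and 37.2% lower.

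Neither dHD28 nor MLC differed from MSC in any member by limma, and dHD28 and MLC were not tested against each other. In dHD28 minus MSC and in MLC minus MSC, 0 of 90 members passed the adjusted p and 0 of all genes did (0.0%), and at an unadjusted p under 0.05 the count was 0 members in both, against 0.264% of all genes higher and 0.863% lower in the first and 0.0989% higher and 0.401% lower in the second. The largest differences among members were 0.41 and -0.40 in dHD28 minus MSC and 0.33 and -0.25 in MLC minus MSC. These counts stand beside the nearness of arrays across the 3 labels: over the members alone, MSC replicate 1 was 0.154 log2 units (root mean square) from dHD28 replicate 2 and 0.487 from its nearest MSC array, and MSC replicate 3 was 0.135 from MLC replicate 3. In simulated data of the kind described above, 47 of 100 genes changed by 1 log2 unit passed the adjusted p in dHD28 minus MSC and 56 of 100 in MLC minus MSC. Both runs had the same settings but for the random draw and the group that was changed. They lacked the nearness of arrays across labels, so they give no separate rates for the 2 comparisons. Changes of that size can be missed.

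The 2 routes back to the MSC medium were compared by the difference between their changes, (MLC minus Hepatocyte) minus (dHD28 minus HD28). It passed the adjusted p and the fold limit for 10 members, all below 0 (11.1%, against 9.96% of all genes below and 13.8% above 0). At the adjusted p alone 15 were below and 0 above 0 (against 13.2% and 16%), and at an unadjusted p under 0.05, 24 and 1 (against 19.1% and 20.2%). Ndufaf4 fell by 1.03 on the way from Hepatocyte to MLC and rose by 1.08 on the way from HD28 to dHD28, a difference of -2.12 ± 0.34 (SE; adjusted p = 0.000457). Sdhb fell by 1.33 on the first route and differed by 0.52 on the second, which did not pass (adjusted p = 0.207), a difference of -1.85 ± 0.35 (SE; adjusted p = 0.00151). MLC and dHD28 were not tested against each other, but no gene passed in dHD28 minus MSC or in MLC minus MSC. The contrast lay close to HD28 minus Hepatocyte, where Ndufaf4 differed by -2.01 and Sdhb by -1.80. It is no separate evidence about the way back. The end points were near each other, with Sdhb at 10.35 ± 0.24 in MLC and 10.40 ± 0.48 in dHD28 (SD, n = 3) and Ndufaf4 at 8.58 ± 0.27 and 8.69 ± 0.06 (SD, n = 3).

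Some members differed with the spike-in signal of the array. In a fit with the spike-in class beside the group, 15 of 90 members differed by class at the adjusted p (16.7%, against 17.2% of all genes), 7 lower and 8 higher in the high class. The widest were the dim Cox7c (-0.96 ± 0.31, SE), Ndufa4 (-0.86 ± 0.21, SE) and Cox6c, a small subunit of complex IV (-0.66 ± 0.19, SE). Cox6c read 10.44, 10.67 and 10.89 in MSC replicate 1, dHD28 replicate 2 and MLC replicate 2, and at least 11.71 in all other arrays, the other 3 of the high class included. Higher in the high class were Ndufb10 (0.51 ± 0.14, SE), Uqcrc1 (0.47 ± 0.12, SE) and Ndufab1 (0.45 ± 0.11, SE), the acyl carrier protein of complex I. Of the members that rose in Hepatocyte, Ndufa6 (-0.44) and Atp5j (-0.27) also differed by class, and with the class as a block 11 members again rose in Hepatocyte against MSC. With this block 0 members rose or fell in HD28 minus MSC and 2 rose in dHD28 minus HD28. In HD28 minus Hepatocyte and in MLC minus Hepatocyte 10 fell.

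**Figure D5:**
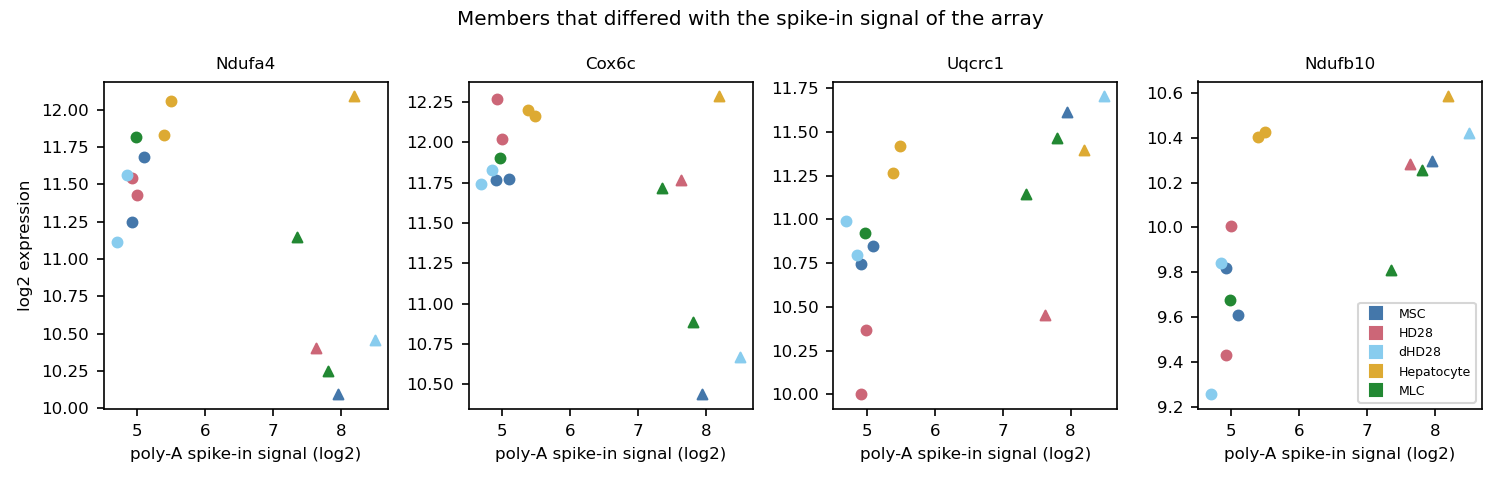
Log2 value of 4 members against the mean log2 signal of the poly-A spike-in controls in each of the 15 arrays; colours are groups, triangles the 6 arrays of high spike-in signal and circles the 9 of low signal. Ndufa4 is lower in the triangles than in the circles of the same group except in Hepatocyte, Cox6c is low in 3 of the 6 triangles, and Uqcrc1 and Ndufb10 are higher in most triangles; the vertical axes do not start at 0.

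Other genes of mitochondrial respiration were counted in lists without any of the members. In Hepatocyte minus MSC, of the factors that assemble the complexes 5 of 35 rose and 0 fell, with Cox16, which works on complex IV, at 1.14 ± 0.27 (SE) and Foxred1, which works on complex I, at 1.11 ± 0.26 (SE). Of electron carriers and other entries to ubiquinone 9 of 20 rose and 1 fell. Prodh, proline dehydrogenase, rose by 5.46 ± 0.57 (SE), and Coq8a, needed to make ubiquinone, by 4.49 ± 0.42 (SE).

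Of the tricarboxylic acid cycle with pyruvate dehydrogenase 8 of 23 rose and 4 fell. The 2 largest changes were in kinases that switch pyruvate dehydrogenase off: Pdk4 fell by 3.93 ± 0.72 (SE) and Pdk3 by 3.74 ± 0.27 (SE). The largest rise in this list was 3.50. Pdk1 and Pdk2, kinases of the same kind, are not given for this comparison, so these falls do not speak for all such kinases. Pdk4 was 5.97 ± 2.14 in Hepatocyte (SD, n = 3), so its arrays lay far apart. Of regulators of mitochondrial gene expression 5 of 24 rose and 4 fell, led by the fatty acid receptor Ppara (5.25 ± 0.50, SE) and the coactivator Pprc1 (-2.47 ± 0.28, SE). Of carriers and channels 3 of 17 rose and 4 fell. The ADP/ATP carrier Slc25a4 fell by 5.71 ± 0.77 (SE), from 12.2 ± 0.395 in MSC to 6.5 ± 2.33 in Hepatocyte (SD, n = 3), a wide spread, and the aspartate/glutamate carrier Slc25a13 rose by 3.23 ± 0.45 (SE).

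Of import and chaperone genes 0 of 23 rose and 2 fell, Timm17a (-1.53 ± 0.19, SE) and the outer-membrane receptor Tomm20 (-1.19 ± 0.17, SE). Of hypoxia genes 2 of 11 rose and 4 fell, with Adm, adrenomedullin, at -3.27 and Hk2, hexokinase 2, at -2.90. Of the housekeeping genes 1 of 10 rose and 5 fell, with Polr2a at -1.85 and Rplp0 at -1.20. The share of all genes that rose by this rule was 11.8% and that fell 18.3%.

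In HD28 minus MSC, where 3.24% of all genes rose and 3.52% fell, counts of rise and fall were 0 and 1 of 35 assembly factors (Ttc19, of complex III, -1.09), 0 and 1 of 20 carriers and entry points (Gpd2, the glycerol phosphate dehydrogenase, -1.66 ± 0.20, SE) and 2 and 2 of 23 tricarboxylic acid cycle genes. Pdp1, the phosphatase that switches pyruvate dehydrogenase on, rose by 3.19 ± 0.29 (SE), and Pdk2 rose by 1.27 ± 0.27 (SE). Of the regulators 0 rose and 1 of 24 fell (Pprc1, -1.03 ± 0.28, SE), of carriers and channels 0 of 17 and of import genes 0 of 23 passed the rule in either direction, although 0 higher and 9 lower, and 1 higher and 11 lower, had an unadjusted p under 0.05 (against 9.33% higher and 14.6% lower of all genes). Of hypoxia genes 1 of 11 rose (Ddit4, 1.63 ± 0.40, SE), and of housekeeping genes 1 of 10 fell (Tfrc, -1.0).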

How the data were processed

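The 15 samples were grouped by the labels, 3 arrays for each of 5 groups. The deposited table holds log2 expression values of 45101 probe sets, which the authors made by RMA per the submitters' processing notes (version not given); RMA evens out array-wide shifts. No source names the base of the logarithm, and the range of the values (1.32 to 14.15) led to 2. Precision is set by the number of arrays, since signals carry no depth. Probe sets with 1 symbol (34945) gave 18193 genes, each by the probe set of the highest mean over the arrays. The members had 179 such probe sets, 51 members more than 1, and 10 probe sets with several symbols were not used. The deposited values were fitted with limma 3.58.1 in R 4.3.3 (5 group means, lmFit, eBayes, 10 residual degrees of freedom) in 7 comparisons, an F test and the difference between the changes on return, with Benjamini-Hochberg adjustment over all genes; the fit was tested on simulated data. Members, lists and tests were chosen with earlier results of these data known. Named are, in each comparison, the up to 5 members with the largest rise and fall past the rule, per complex the widest and narrowest by group means, the Sdh genes, the isoform families, and per list the 2 largest called changes in Hepatocyte and in HD28 against MSC; others are named where counts or array values call for it. Of 179 list genes 163 were measured. Alternatives were other treatments of probe sets, a filter on dim genes, other scalings, limma options, blocks and each array left out. The labels give no pairing, and the main fit used none. Replicate number entered as a block in 1 alternative only. Deviations of same-numbered HD28 and dHD28 arrays correlated at 0.32, 0.28 and 0.12, but each of these pairs shared a spike-in class. Same-numbered arrays of MLC and MSC gave -0.68 in replicate 2 and 0.77 in replicate 3, so such values do not show pairing.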

Additional observations from a re-analysis of the deposited data

Results flagged for a closer look

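In 10 members the change from Hepatocyte to MLC differed from the change from HD28 to dHD28 by limma's contrast of the 2 changes. This is 11.1% of the members, against 9.96% of all genes below and 13.8% above 0. The contrast is close to HD28 minus Hepatocyte, since no gene passed in dHD28 minus MSC or in MLC minus MSC. MLC and dHD28 were not tested against each other. The difference was -2.35 for Cox7a1, -2.24 for Ndufaf6, -2.12 for Ndufaf4, -1.85 for Sdhb, -1.32 for Uqcrc2 and -1.14 for Uqcrfs1, the iron-sulfur protein of complex III. The value of Cox7a1 rests on HD28, dHD28 and MLC means of 3.57, 4.08 and 3.72, below the array medians of 4.84 to 4.95, so its size is uncertain. It was -1.07 for Uqcrc1, -1.05 for Sdha, -1.02 for Ndufa6 and -1.01 for Atp5j. The adjusted p was between 0.000457 for Ndufaf4 and 0.048 for Uqcrc1. The last 4 lie near the fold limit of 2, and their calls were lost when single arrays were left out. For Uqcrc1 this held for 11 of the 15 arrays, those apart from MSC replicates 1 and 2, dHD28 replicate 3 and MLC replicate 2 (lowest size -0.80 without dHD28 replicate 2). For Sdha it held for Hepatocyte replicate 1 (-0.96) and MLC replicate 2 (-0.97). For Ndufa6 it held for HD28 replicate 2, Hepatocyte replicates 2 and 3, MLC replicate 2 and dHD28 replicates 1 and 3 (-0.85 to -1.01). For Atp5j it held for HD28 replicates 1 and 2, Hepatocyte replicates 2 and 3, MLC replicates 1 and 2 and dHD28 replicates 1 and 3 (-0.89 to -0.999). Blocked on spike-in class, Atp5j (-0.92) and Ndufa6 (-0.87) also fell short of the fold limit, and Cox6b2 (-1.01) and Ndufv1 (-1.02) passed. With the replicate block Uqcrc1 missed the adjusted p (0.0548).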

How the results depend on the processing

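Counts of members that rose or fell by the adjusted p and a fold of 2 changed as follows. With no fold limit, HD28 minus MSC gave 2 higher and 4 lower, dHD28 minus HD28 5 and 7, Hepatocyte minus MSC 29 and 3, HD28 minus Hepatocyte 1 and 31, and MLC minus Hepatocyte 3 and 31. Under housekeeping centring they gave 1 higher in HD28 minus MSC, 0 higher and 2 lower in dHD28 minus HD28, 51 higher in Hepatocyte minus MSC, 42 lower in HD28 minus Hepatocyte and 54 lower in MLC minus Hepatocyte, with 30 members in the difference between the changes on return (all genes 23.2% lower and 8.89% higher) and 84 in the F test (78.1% of all genes). That centring reversed Cox7a2l in Hepatocyte minus MSC (0.12) and Atp5g2 (-0.0644) and Ndufaf2 (-0.28) in MLC minus Hepatocyte. In dHD28 minus HD28 the mean of all probe sets gave 1 higher, treat against a fold of 1.5 gave 0 higher, and array weights gave 1 lower. Blocking on spike-in class with HD28 replicate 3 left out, 1 member was lower in HD28 minus MSC and 1 in dHD28 minus HD28. Centring on array medians gave 1 higher in MLC minus Hepatocyte, and treat left 4 in the difference on return.

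With 1 array left out at a time the counts ran from 0 to 1 lower in HD28 minus MSC, 0 to 3 higher and 0 to 2 lower in dHD28 minus HD28, 10 to 12 higher in Hepatocyte minus MSC, 9 to 11 lower in HD28 minus Hepatocyte, 0 to 1 higher and 9 to 11 lower in MLC minus Hepatocyte, 7 to 12 in the difference on return and 28 to 37 in the F test. The replicate number as a block left each count of the 7 comparisons as it was (2 higher in dHD28 minus HD28) and gave 9 in place of 10 members in the difference on return. For the members chosen for naming 1430 alternative values kept direction and call, 26 gained a call, 54 lost it and 2 reversed. The cause of these changes was not tested. Signals near the lower quartile of the arrays, as for Cox7b2 and Ndufb4, limit what can be seen, and 11 members had probe sets that differed in sign in Hepatocyte minus MSC.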
